A study of Homo sapiens with 8 samples.

Results

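The direct comparison of CBU-028 with EerI rested on 4 of the 8 arrays of the series: 2 of 293T cells given 10 µM CBU-028 for 10 h and 2 of 293T cells given 10 µM EerI for 10 h. The arrays were chosen by their treatment labels, with no use of the measured values, and all 54675 probe sets entered the test. 293T is a line from human embryonic kidney that carries the SV40 large T antigen. EerI (eeyarestatin I, spelled Eer1 in the labels) is an inhibitor of ER-associated degradation, and CBU-028 is a compound of the same study known by its code name. The 2 control arrays of 293T cells served to show in which direction each compound moved a gene, and the 2 arrays of cells given 10 µM 5-NA for 10 h entered the fit only for its estimate of the spread. The titles of the 5-NA arrays carry a number that the study's compound list gives to another compound, so their identity rests on the treatment label alone. No genetic change separated the groups, and whether the control cells received solvent is not given in the sources used here. Treatments were done in duplicates, which the study calls biological where it lists genes for EerI and 5-NA. For CBU-028 the sources used here do not say so, and a p-value measures only the spread between these samples. Values are log2 RMA values, so a difference of 1 is a 2-fold difference, and every difference below is CBU-028 minus EerI unless control is named.

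ER-associated degradation takes misfolded proteins out of the endoplasmic reticulum (ER) with the help of the ATPase p97 (gene VCP) and passes them to the proteasome. When unfolded proteins build up, the sensors PERK, IRE1 and ATF6 start the unfolded protein response. PERK phosphorylates eIF2α, which raises translation of the transcription factor ATF4 and so its target genes for amino acid supply, redox balance and cell death, whereas ATF6 and the IRE1 product XBP1 raise the ER chaperones.

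The duplicates were close, but not equally so. The residual SD of a probe set was 0.0974 on the log2 scale for EerI, 0.163 for CBU-028, 0.0921 for control and 0.119 for 5-NA. Pearson's r across probe sets was 0.998 between the EerI duplicates and 0.995 between the CBU-028 duplicates. Of 8 markers of the embryonic kidney line, VIM and KRT18 had log2 values of 13.66 to 13.77 and 12.22 to 12.34 on the control, EerI and CBU-028 arrays, and EYA1 and the neurofilament gene NEFM were lower with CBU-028 than with EerI (differences -0.60 and -0.44, adjusted p = 0.0101 and 0.0314). Of 7 blood and liver markers measured, none passed the test between the compounds, which does not show whether they were expressed. In control the liver markers TTR and ALB stood at 7.70 and 7.67 and at 5.16 and 5.27. EYA1 stood there at 7.65 and 7.64 and NEFM at 10.14 and 10.27.

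For most probe sets the difference between CBU-028 and EerI was bounded within 1.5-fold, and where it passed the test CBU-028 mostly lay farther from control than EerI did. At a Benjamini-Hochberg adjusted p under 0.05 (limma) and at least 2-fold, 18 probe sets were higher with CBU-028 than with EerI, 0.0329% of those tested, and 22 were lower, 0.0402%. By the adjusted p alone, 698 were higher (1.28%) and 915 lower (1.67%), and CBU-028 was the farther from control for 667 and 825 of them, EerI for 31 and 90. The 95% interval of the difference lay within 1.5-fold in either direction for 49771 probe sets, 91.0% of all, and for 89.2% of the 26436 probe sets with a mean log2 value of at least 7. Among the 18 higher probe sets, the control mean lay below both compounds for 11 and between them for 7. Among the 22 lower ones, it lay above both for 17 and between them for 5. CBU-028 was farther from control than EerI for all 18 and all 22. Their median difference from control was 1.31 with CBU-028 and 0.11 with EerI for the higher probe sets, and -1.40 and -0.24 for the lower ones. The 2 control arrays are shared by these differences from control.

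**Figure D1:**
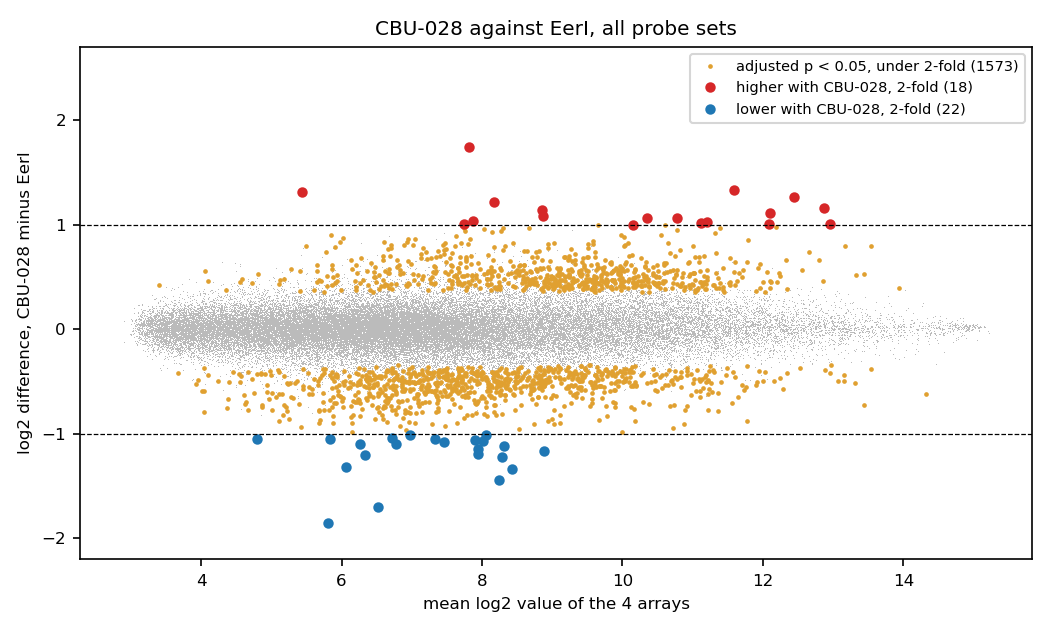
Difference between the means of the CBU-028 and EerI arrays (log2, vertical axis) against the mean log2 value of the 4 arrays (horizontal axis), a point per probe set, with dashed lines at 2-fold. The 18 higher and 22 lower probe sets past both thresholds are the large points, and most of the grey cloud stays well inside the dashed lines.

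These counts depended on which arrays were fitted. Without EerI replicate 1 only 2 probe sets were higher and 4 lower, without EerI replicate 2 the counts were 13 and 11, and in a fit of the 4 arrays alone they were 3 and 3. Without CBU-028 replicate 1 they were 15 and 48, and without CBU-028 replicate 2 they were 63 and 25. Of 85 genes that the naming rule took and that passed the adjusted p, 3 also passed without EerI replicate 1 (SNHG17, IFIT1 and PCDH7), 10 without EerI replicate 2 and 4 in the fit of the 4 arrays alone (H2AC6, SNHG17, IFIT1 and PCDH7). None changed direction under these settings. Per gene, the gene counts below use the probe set with the highest mean among those with a single symbol, 19775 genes in all, of which 316 (1.60%) were higher and 422 (2.13%) lower with CBU-028 by the adjusted p. Both CBU-028 arrays lay above both EerI arrays for 23.5% of the genes and below both for 25.5%, and the median difference over all genes was -0.01. Of the 85 genes, 51 had other probe sets with a single symbol. For 25 at least 1 of these also passed in the same direction and for 26 none passed. For 17 at least 1 had the opposite sign, none of them past the test.

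**Figure D2:**
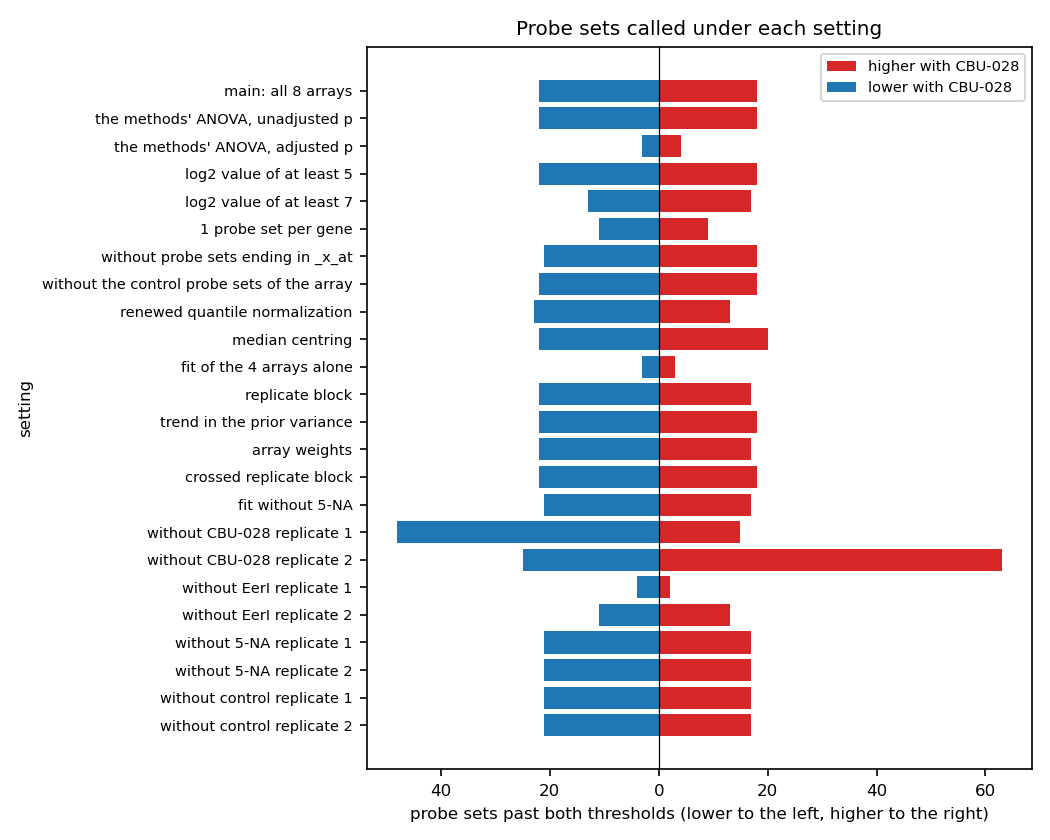
Number of probe sets at least 2-fold different at an adjusted p under 0.05 (horizontal axis, lower with CBU-028 to the left and higher to the right) under each setting (vertical axis; the methods' ANOVA without adjustment uses its raw p). The bars stay near 18 and 22 under most settings and shrink to 2 and 4 without EerI replicate 1 and to 3 and 3 in the fit of the 4 arrays alone.

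By representative probe set, 9 genes were at least 2-fold higher with CBU-028, and they included a histone, long non-coding RNAs, the first enzyme of heme synthesis and a stress-induced pseudokinase. The histone gene H2AC6 (an H2A gene) stood at 7.01 and 6.89 with EerI, 8.69 and 8.69 with CBU-028, and 7.21 and 6.84 in control. EerI therefore lay within the control range and both CBU-028 arrays above it, a difference of 1.74 (SE 0.157, adjusted p = 0.00402), or 3.34-fold. SNHG17, a small nucleolar RNA host gene, stood at 11.80 and 11.80 with EerI and 13.04 and 13.10 with CBU-028, against 11.38 and 11.34 in control. That made it 1.27 higher with CBU-028 (SE 0.086, adjusted p = 0.00132), and a further probe set of this gene gave 1.33. PRELID3A was 1.22 higher, CDKN2AIP, which binds the tumour suppressor ARF, 1.14 higher, and the antisense RNA THAP9-AS1 1.06 higher. Whether the probes of THAP9-AS1 read only the antisense strand could not be checked here, so its value is uncertain, as are those of ATXN1-AS1 and EPB41L4A-AS1 below.

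TRIB3, an ATF4-induced pseudokinase that restrains AKT and CHOP signalling, stood at 9.77 and 9.79 in control, 10.69 and 10.69 with EerI and 11.72 and 11.70 with CBU-028. The groups formed a staircase with no overlap, and TRIB3 was 1.02 higher with CBU-028 (SE 0.0762, adjusted p = 0.00214). ALAS1, the rate-limiting enzyme of heme synthesis, stood at 10.58 and 10.65 with EerI, close to 10.52 and 10.51 in control, and at 11.66 and 11.60 with CBU-028 (difference 1.01, SE 0.0844, adjusted p = 0.00302). TFRC, the transferrin receptor for iron uptake, was moved in opposite directions. It stood at 12.98 and 12.93 in control, at 12.44 and 12.48 with EerI and at 13.39 and 13.54 with CBU-028. Against control the difference was -0.50 with EerI (adjusted p = 0.047) and 0.51 with CBU-028 (adjusted p = 0.0069), and between the compounds it was 1.004 (adjusted p = 0.00315). GADD45A, a stress-induced growth arrest gene, stood at 10.98 and 10.99 in control, 11.59 and 11.57 with EerI and 12.53 and 12.63 with CBU-028, which made it 1.002 higher with CBU-028 (adjusted p = 0.00244).

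On the other side, 11 genes were at least 2-fold lower with CBU-028, led by an interferon-induced gene, a protocadherin and extracellular or signalling genes. IFIT1, an interferon-induced RNA-binding protein, stood at 8.05 and 8.17 in control, 7.32 and 7.43 with EerI and 5.80 and 5.55 with CBU-028. It was 1.70 lower with CBU-028 on the log2 scale (difference -1.70, SE 0.102, adjusted p = 0.000855), and both compounds lay below control. PCDH7, a protocadherin of cell adhesion, stood at 9.02 and 9.17 with EerI, near 9.17 and 9.20 in control, and at 7.75 and 7.76 with CBU-028 (difference -1.34, SE 0.0817, adjusted p = 0.000855). Its probe sets disagreed, since a second gave -1.20 and 3 others lay between -0.27 and 0.24 and did not pass. G0S2, an inhibitor of triglyceride lipolysis, stood at 7.35 and 7.995 with CBU-028 and 8.93 and 8.85 with EerI (difference -1.22, adjusted p = 0.0176), with a wide gap between the CBU-028 duplicates.

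WNT5A, a ligand of non-canonical WNT signalling, stood at 8.50 and 8.59 with EerI and 7.56 and 7.14 with CBU-028 (difference -1.20, adjusted p = 0.00577), and its second probe set gave -1.05. ARID5B, a chromatin-binding factor, was 1.12 lower (difference -1.12), COL2A1, a fibrillar collagen, had a difference of -1.08, and SOSTDC1, a secreted BMP and WNT antagonist, of -1.07. The helicase PIF1 had -1.06, the antisense RNA ATXN1-AS1 -1.04 and the lysophosphatidic acid receptor LPAR6 -1.02. For these 7 genes from WNT5A on, the adjusted p lay between 0.00577 and 0.0167 and both CBU-028 arrays were below both EerI arrays. ATXN1-AS1 differed in that EerI lay above control, 7.13 and 7.35 against 6.79 and 6.69, and CBU-028 below it at 6.12 and 6.28. COL4A5, a basement membrane collagen named after its values were seen, was the last at 2-fold or more (difference -1.01).

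**Figure D3:**
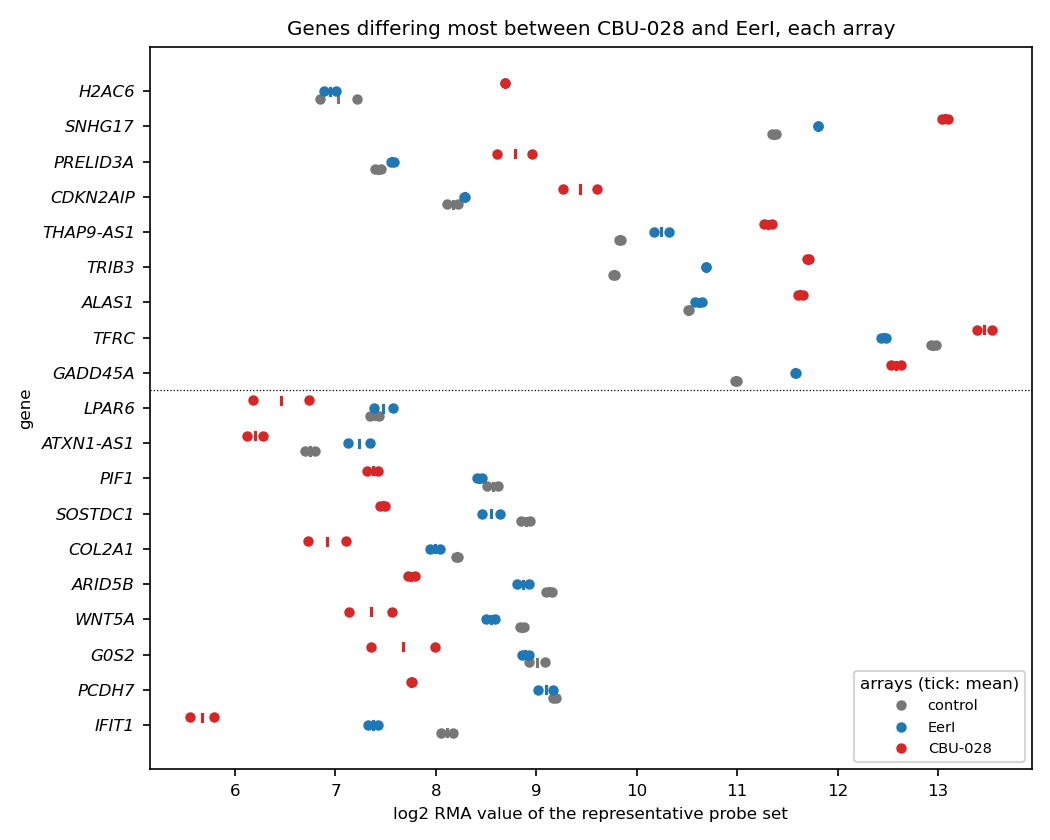
Log2 RMA values (horizontal axis) of the 9 genes at least 2-fold higher and the 10 with the largest falls with CBU-028 (vertical axis, split by the dotted line), with a point per array and a tick at each group mean. The CBU-028 points sit apart from the EerI points in every row, whereas EerI and control often lie close, as for H2AC6 and PCDH7, and TFRC has control between the compounds.

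A few genes passed 2-fold only by a probe set that did not represent them, and these were named after their values were seen. The largest difference on the array was on a probe set of CYP1B1, a xenobiotic-metabolizing P450, at 6.73 and 6.73 with EerI and 4.87 and 4.90 with CBU-028 (difference -1.85, adjusted p = 0.00025). Its representative probe set gave -0.79 and the other probe sets -0.60 and 0.17. STC1, a secreted glycoprotein, gave -1.32 on a probe set whose name ends in _x_at, which marks possible cross-hybridization, and -0.76 and -0.53 on the others, all 3 past the adjusted p. A probe set of MAFF, a small MAF factor, gave 1.31, from 4.71 and 4.84 with EerI to 5.92 and 6.25 with CBU-028. MDM2, the ubiquitin ligase of p53, gave 1.01 on a probe set and 0.55 on the representative. AHSA2P gave -1.44 on a probe set (adjusted p = 0.00345), but -0.08 on the representative and -0.08 and -0.10 on the others. IGFBP5, SBF1, RSBN1L and MIR1915HG (lower) and SRSF6 and TMEM242 (higher) also passed only by such a probe set.

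Some PERK/ATF4 targets were higher with CBU-028 than with EerI, and for most of the others the difference was bounded within 1.5-fold. Of 30 targets measured, 8 were higher with CBU-028 and 0 lower, against 1.60% and 2.13% of all genes. Both CBU-028 arrays lay above both EerI arrays for 16 and below for 8, against 23.5% and 25.5% of all genes. The interval lay within 1.5-fold for 19. The median difference was 0.21, and the median difference from control was 1.42 with CBU-028 and 1.25 with EerI. The 8 were TRIB3, ATF3, GDF15, CEBPG, STC2, SESN2, PPP1R15A and DDIT3. ATF3, a stress-induced transcription factor, stood at 9.77 and 9.89 in control, 11.70 and 11.70 with EerI and 12.75 and 12.60 with CBU-028, a staircase like that of TRIB3 (difference 0.97, SE 0.107, adjusted p = 0.00659). DDIT3, which encodes the death-linked factor CHOP, stood at 8.50 and 8.49 in control, 10.27 and 10.37 with EerI and 10.94 and 10.77 with CBU-028 (difference 0.54, adjusted p = 0.032). STC2, a secreted stress glycoprotein, was 0.63 higher and CEBPG, a dimer partner of ATF4, 0.69 higher.

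GDF15, a secreted stress cytokine, differed from these in that EerI at 6.28 and 6.27 lay within the control range of 5.97 to 6.43, and CBU-028 stood at 7.16 and 6.92 (difference 0.77, adjusted p = 0.0331). This came from a probe set whose name ends in _x_at, and its others gave -0.20 and 0.27 and did not pass. Without CBU-028 replicate 1 its adjusted p was 0.0871. PPP1R15A, the stress-induced subunit that brings a phosphatase to eIF2α, was 0.55 higher with CBU-028 (adjusted p = 0.0234), as was SESN2, an inhibitor of mTORC1 (0.55, adjusted p = 0.0138). The largest negative differences in the list were ALDH1L2, a mitochondrial folate enzyme (-0.40, adjusted p = 0.225), and PCK2, mitochondrial PEP carboxykinase (-0.30, adjusted p = 0.077), neither past the test. Of the 8, 0 passed without EerI replicate 1, 1 without EerI replicate 2 and 0 in the fit of the 4 arrays alone. The median difference was 0.179 without EerI replicate 1 and 0.225 without EerI replicate 2.

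**Figure D4:**
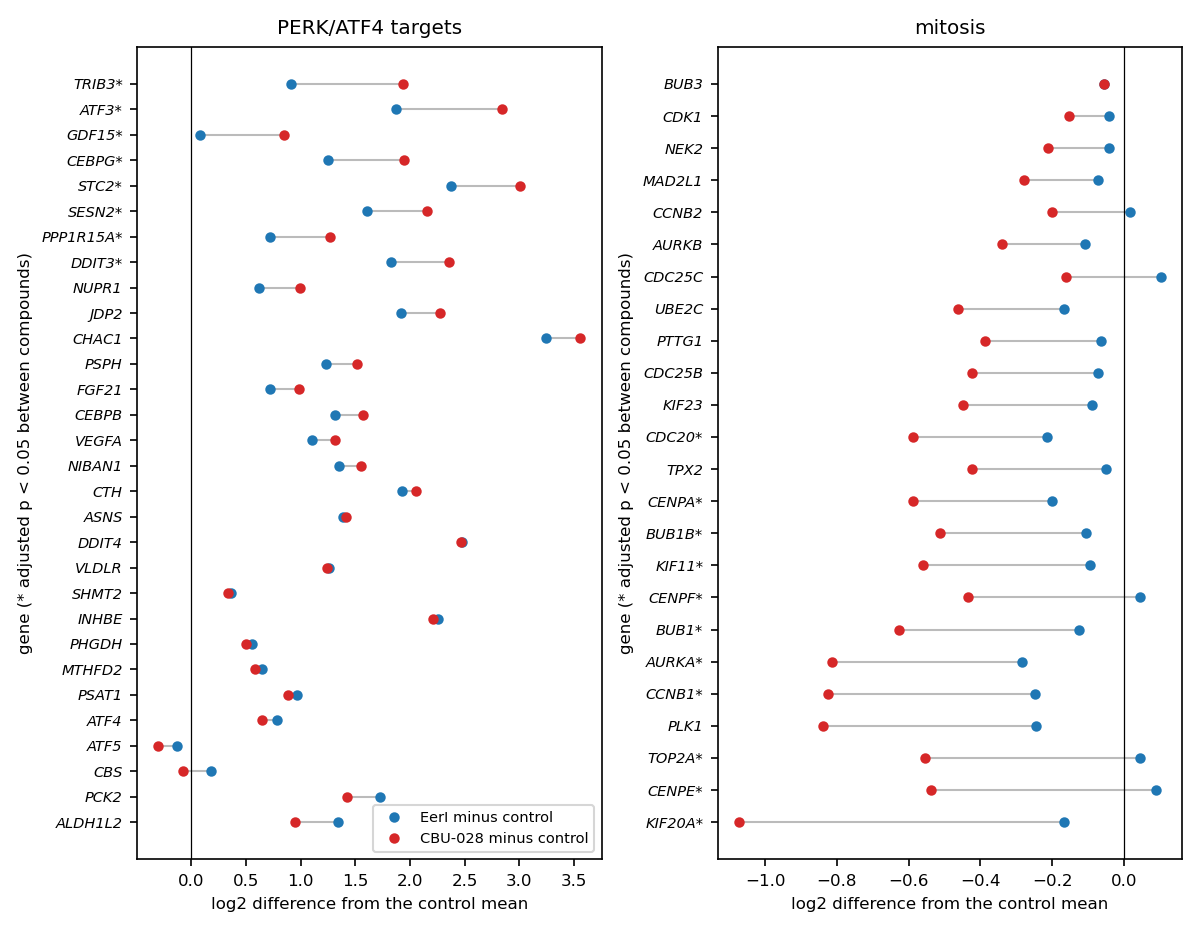
Difference of each compound from the control mean (log2, horizontal axis) for the members of the PERK/ATF4 and mitosis lists (vertical axis, ordered by the difference between the compounds), with a line joining EerI and CBU-028. In the left panel nearly all points are above 0 and the 8 starred genes lie at the top with CBU-028 to the right, and in the right panel CBU-028 lies to the left of EerI for 23 of 24 genes.

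The promoters of ATF3 and CHAC1, 2 genes of this list, are shown because both hold a match to the core of the composite element read by ATF4 and C/EBP factors. ATF3 passed the test between the compounds and CHAC1 did not. Their differences had the same sign, and the 2 genes were not compared with each other. Searched as TGATGNAA on both strands, this core was found in 3.62% of 35116 RefSeq promoter windows (GRCh38.p14, 250 bases before to 50 after a start). In the PERK/ATF4 list it was in 6 of 38 windows (15.8%), and in 6 of 24 genes with a window. CHAC1, a glutathione-degrading enzyme, stood at 7.28 and 7.49 in control, 10.64 and 10.61 with EerI and 11.01 and 10.88 with CBU-028 (difference 0.32, 95% interval 0.02 to 0.62, adjusted p = 0.255). A match is a description of letters and not a bound site. The capitals below mark the core, on the minus strand of the window for CHAC1. The ATF3 window is chr1:212565157-212565456 and that of CHAC1 is chr15:40953221-40953520, both on the plus strand. ATF3 has 2 windows, and this 1 was chosen because it holds a match.
ATF3: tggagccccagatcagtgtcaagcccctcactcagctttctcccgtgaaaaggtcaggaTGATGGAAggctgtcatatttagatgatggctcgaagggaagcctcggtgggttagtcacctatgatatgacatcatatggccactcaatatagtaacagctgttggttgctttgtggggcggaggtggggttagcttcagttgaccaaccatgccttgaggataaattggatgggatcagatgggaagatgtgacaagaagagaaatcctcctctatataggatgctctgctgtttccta
CHAC1: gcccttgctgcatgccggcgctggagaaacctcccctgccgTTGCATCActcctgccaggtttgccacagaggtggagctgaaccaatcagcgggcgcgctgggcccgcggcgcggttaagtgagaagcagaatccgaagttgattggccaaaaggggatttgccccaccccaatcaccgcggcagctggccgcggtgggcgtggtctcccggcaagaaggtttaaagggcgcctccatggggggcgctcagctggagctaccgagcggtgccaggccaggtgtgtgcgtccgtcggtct

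The 6 genes that both compounds raised most with an interval inside 1.5-fold were SLC7A11, DDIT4, INHBE, JDP2, CTH and SLC1A4. SLC7A11, the cystine importer, stood at 8.68 and 8.73 in control, 11.60 and 11.61 with EerI and 11.63 and 11.55 with CBU-028 (difference -0.01, 95% interval -0.19 to 0.17). DDIT4, a brake on mTORC1, stood at 11.83 and 11.79 with EerI and 11.80 and 11.81 with CBU-028, against 9.44 and 9.24 in control. The compound groups overlapped for both genes. INHBE, an inhibin subunit, had a difference of -0.04 (interval -0.29 to 0.21) and CTH, an enzyme of cysteine synthesis, 0.13 (-0.10 to 0.36). JDP2, an AP-1 repressor, came nearest the edge, at 0.35 (0.15 to 0.55, adjusted p = 0.0705). SLC1A4, a neutral amino acid transporter, had 0.21 (-0.05 to 0.47).

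ATF4 itself stood at 13.17 and 13.25 in control, 13.99 and 14.00 with EerI and 13.90 and 13.81 with CBU-028, a difference of -0.14 that did not pass (interval -0.34 to 0.07, adjusted p = 0.483). PMAIP1, which encodes the death protein NOXA, stood at 12.17 and 12.18, 12.99 and 12.93, and 13.33 and 13.12 in the same order (difference 0.26, interval 0.02 to 0.50, adjusted p = 0.248). VCP, the p97 gene, had a difference of -0.09 (interval -0.27 to 0.10) and lay at 11.54 to 11.73 on all 6 arrays. None of 13 amino acid transporters, 17 tRNA synthetases, 25 genes of ERAD and p97 or 28 of the proteasome and ubiquitin passed, and every one of these genes had an interval within 1.5-fold. The largest differences were 0.26 for the arginine and lysine transporter SLC7A1 (adjusted p = 0.119) and -0.21 for SLC1A5, a glutamine transporter. Among synthetases they were -0.27 for VARS1 and 0.16 for TARS1. EDEM1, which passes misfolded glycoproteins to degradation, had -0.32 (adjusted p = 0.0924) and the ubiquitin-conjugating enzyme UBE2G2 0.30. PSMD11 and PSMA7, proteasome subunits, had 0.22 and 0.19.

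A few ER chaperones were lower with CBU-028. Of 22 measured, 0 were higher and 3 lower (1.60% and 2.13% over all genes), 19 had an interval within 1.5-fold, the median difference was -0.16 and both CBU-028 arrays lay below both EerI arrays for 13 (25.5% over all genes). HSPA5, the ER chaperone BiP, stood at 13.11 and 13.23 in control, 13.57 and 13.58 with EerI and 13.10 and 13.01 with CBU-028. EerI was thus above both other groups, and the difference was -0.52 (SE 0.088, adjusted p = 0.0209), whereas against control neither EerI (0.40, adjusted p = 0.12) nor CBU-028 (-0.12, adjusted p = 0.50) passed. HYOU1, an ER chaperone of the HSP110 type, stood at 11.03 and 10.86 with EerI and 10.48 and 10.41 with CBU-028 (difference -0.50, adjusted p = 0.0341). MANF, a secreted ER stress protein, had -0.41 (adjusted p = 0.0395). The 3 calls were 0 without either EerI replicate and in the fit of the 4 arrays alone, 1 without CBU-028 replicate 1 or either control array, and 2 without CBU-028 replicate 2.

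The HSPA5 promoter carries the ER stress response element through which ATF6 and XBP1 act, and is shown for that reason. This motif, chosen after the values were seen, was searched as CCAAT and CCACG with 9 bases between them on both strands. It was in 0.0769% of all windows and in 8 of 20 chaperone genes with a window (CALR, CANX, CRELD2, ERO1B, HSP90B1, HSPA5, PDIA6 and SERP1), and in 0 of 24 of the PERK/ATF4 list, where absence covers this window alone. The window is chr9:125241294-125241593 (GRCh38.p14, minus strand), with the element in capitals.
HSPA5: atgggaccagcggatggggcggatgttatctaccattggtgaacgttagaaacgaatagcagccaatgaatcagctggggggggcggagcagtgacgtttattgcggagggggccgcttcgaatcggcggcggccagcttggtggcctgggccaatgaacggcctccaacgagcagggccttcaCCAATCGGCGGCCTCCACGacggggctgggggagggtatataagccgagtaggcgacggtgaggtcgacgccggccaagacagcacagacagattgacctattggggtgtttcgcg

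Of 7 ER stress sensors and their kin, ERN1, which encodes IRE1, was 0.60 higher with CBU-028 (8.82 and 8.83 against 8.19 and 8.25, adjusted p = 0.0236) by its representative probe set, while its others gave -0.30 and 0.06 and did not pass. CREB3L2, a membrane-bound factor of the ATF6 kind, had a difference of -0.49 (adjusted p = 0.0223) by its representative probe set. Its others gave 0.12 and -0.02 and did not pass. In the heat shock list of 19, ZFAND2A (AIRAP), a proteasome-associated stress protein, was higher with CBU-028, at 11.11 and 11.10 against 10.05 and 10.17 with EerI and 9.31 and 9.27 in control (difference 0.996, adjusted p = 0.00404). HSPA1L, an HSP70 gene, was lower, at 8.05 and 8.11 against 8.78 and 8.92 (difference -0.77, adjusted p = 0.0116), and control stood at 8.12 and 8.41. The other 17 heat shock genes did not pass, with a list median of -0.09. Of these 4 calls, ZFAND2A alone passed without EerI replicate 2 and none without EerI replicate 1.

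Of 25 targets of NRF2, the oxidative stress factor, 3 were higher with CBU-028 and 0 lower, against 1.60% and 2.13% of all genes, with a median difference of 0.04. HMOX1, the heme-degrading oxygenase, stood at 9.82 and 9.86 in control, 12.77 and 12.78 with EerI and 13.68 and 13.47 with CBU-028. It rose with both compounds and was 0.80 higher with CBU-028 (SE 0.0905, adjusted p = 0.00694). GCLM, a subunit of the glutathione-making ligase, was 0.54 higher and MAFG, a partner of NRF2, 0.46 higher (adjusted p = 0.046). None of the 3 passed without an EerI replicate. Of 10 targets of the aryl hydrocarbon receptor only CYP1B1 passed, at 7.30 and 7.37 with EerI and 6.46 and 6.64 with CBU-028 by its representative probe set (difference -0.79, adjusted p = 0.0148), and CYP1A1 had -0.33 (adjusted p = 0.078). MT1X, a metal-binding metallothionein, was lower (-0.50, adjusted p = 0.0397), the only one of 11 in its list, whose median was -0.25. The core of the antioxidant response element, TGACNNNGC, lay in 6 of 23 windows of NRF2 targets, 7 of 25 windows of ER chaperones and 13.3% of all windows. The core read by the aryl hydrocarbon receptor, GCGTG, lay in 8 of 12 windows of its targets, 18 of 25 of ER chaperones and 36.5% of all, so neither was particular to its list.

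The immediate early and p53 target lists each had members higher with CBU-028. The list of 27 immediate early and AP-1 genes had 4 higher and 0 lower members (median 0.15), against 1.60% and 2.13% of all genes. In the fit of the 4 arrays alone, 0 members passed. Besides ATF3 and GADD45A the 4 included FOS, a subunit of AP-1, at 7.19 and 7.49 with CBU-028 against 6.56 and 6.45 with EerI (difference 0.84, adjusted p = 0.0426), and GADD45B (0.57, adjusted p = 0.043). Of 19 p53 targets, 6 were higher (1.60% over all genes) and 0 lower, with a median of 0.24 and 11 with both CBU-028 arrays above both EerI arrays (23.5% over all genes). AEN, an apoptotic nuclease, stood at 10.58 and 10.63 with EerI and 11.36 and 11.44 with CBU-028, and control lay between them at 10.86 and 10.77 (difference 0.80, adjusted p = 0.00465). TNFRSF10B, the death receptor DR5, stood at 11.42 and 11.47 with EerI, near 11.48 and 11.54 in control, and at 12.06 and 12.13 with CBU-028 (difference 0.65, adjusted p = 0.00836). MDM2 was 0.55 higher, the kinase PLK3 0.52 higher and PHLDA3, an inhibitor of AKT, 0.51 higher. 293T cells carry large T antigen, which binds p53. Of 15 BCL2 family genes, the death-promoting BCL2L11 (BIM) was 0.40 higher (adjusted p = 0.0275). Its difference from control was 0.11 with CBU-028 and -0.30 with EerI, neither past the test. Without EerI replicate 1 none of these lists had a call, and without EerI replicate 2 GADD45A alone passed.

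Mitotic genes formed the list that was lowest with CBU-028. Of 24 measured, 11 were lower and 0 higher, against 2.13% and 1.60% of all genes, and both CBU-028 arrays lay below both EerI arrays for 23, against 25.5% over all genes. The median difference was -0.37. Against control the median was -0.46 with CBU-028 and -0.08 with EerI. KIF20A, a kinesin of cytokinesis, stood at 11.46 and 11.52 in control, 11.30 and 11.34 with EerI and 10.54 and 10.29 with CBU-028 (difference -0.91, SE 0.0983, adjusted p = 0.00624). CENPE, a kinetochore motor, stood at 9.54 and 9.66 with EerI and 9.003 and 8.95 with CBU-028 (difference -0.63, adjusted p = 0.0155), with control at 9.59 and 9.43. TOP2A, the mitotic topoisomerase, had -0.60, CCNB1, cyclin B1, -0.58 and the spindle kinase AURKA -0.53.

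For CENPE and TOP2A the EerI arrays lay at the level of control, and for CCNB1 and AURKA slightly under it. The other 6 that passed were BUB1, KIF11, CENPF, BUB1B, CENPA and CDC20, with differences from -0.50 to -0.37. BUB3 was the gene that did not follow, with a difference of 0.00. The 11 calls became 0 without either EerI replicate and in the fit of the 4 arrays alone, and 5 without either control array, while the median stayed between -0.42 and -0.35 with any array left out. DNA replication genes did not share this direction. Of 28, 4 were higher and 0 lower, against 1.60% and 2.13% of all genes, with a median of 0.14. They were CDT1, a licensing factor, the origin proteins ORC1 (0.41) and ORC6 (0.35), and E2F2 (0.40). CDT1 stood at 10.64 and 10.61 with EerI and 11.29 and 11.25 with CBU-028 (difference 0.65, adjusted p = 0.00759), and its second probe set gave 0.08. The values of CDT1 and ORC6 came from _x_at probe sets. In the fit of the 4 arrays alone, 0 genes of the list passed. The list median was 0.08 without CBU-028 replicate 1 and 0.17 without CBU-028 replicate 2.

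Histone genes included 7 of 15 higher with CBU-028 and 0 lower, against 1.60% and 2.13% of all genes. The median difference was 0.45, and 12 had both CBU-028 arrays above both EerI arrays (23.5% over all genes). Besides H2AC6 they were the H2B genes H2BC21, H2BC4, H2BC9, H2BC6, H2BC12 and H2BC5. H2BC21 stood at 6.57 and 6.82 in control, 6.30 and 6.29 with EerI and 7.11 and 7.09 with CBU-028 (difference 0.80, adjusted p = 0.00759). The other 5 H2B differences ran from 0.41 to 0.55. H4C8 had 0.64 (adjusted p = 0.0652) and H2AZ1, a variant whose mRNA is polyadenylated, -0.06. Histone genes of a cluster are near-identical and their probe sets can share signal, so the members are not independent. The 7 became 0 without either EerI replicate, 1 in the fit of the 4 arrays alone, 2 without either control array and 8 without either CBU-028 array.

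Beside this, all 27 probe sets of the poly-A RNAs added as labelling controls had higher means with CBU-028, with differences of 0.02 to 0.69, a median of 0.45 and none past the test (smallest adjusted p = 0.0907). All 18 hybridization control probe sets did so too (median 0.27, smallest adjusted p = 0.271). The median deviation of the poly-A controls from the control mean was -0.38 and -0.04 on the EerI arrays and 0.06 and 0.42 on the CBU-028 arrays. The 3 probe sets of 18S ribosomal RNA had differences of 0.66, 0.65 and 0.69 (adjusted p = 0.0362, 0.0782 and 0.0383) and the 3 of 28S of 0.01 to 0.17. Their part in the histone result, and in the other differences, was not tested.

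Small nucleolar RNA host genes, whose introns hold snoRNAs, were listed by 12 names, of which 3 had a probe set with a single symbol. SNHG17, described above, was not on this list, nor was SNHG32. ZFAS1 was 0.53 higher (13.15 and 13.19 with EerI, 13.75 and 13.66 with CBU-028, adjusted p = 0.0138) and EPB41L4A-AS1 0.46 higher (adjusted p = 0.0224), while GAS5 had 0.04. Neither passed without an EerI replicate. Probe sets that name GAS5 together with snoRNAs gave 0.36, 0.31, -0.10 and -0.13, and none of them passed. Factors of RNA polymerase I and ribosome assembly did not follow the host genes, with 0 of 20 past the test, all 20 intervals within 1.5-fold and largest differences of 0.33 for RRN3 (adjusted p = 0.0555) and 0.28 for NOB1.

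**Figure D5:**
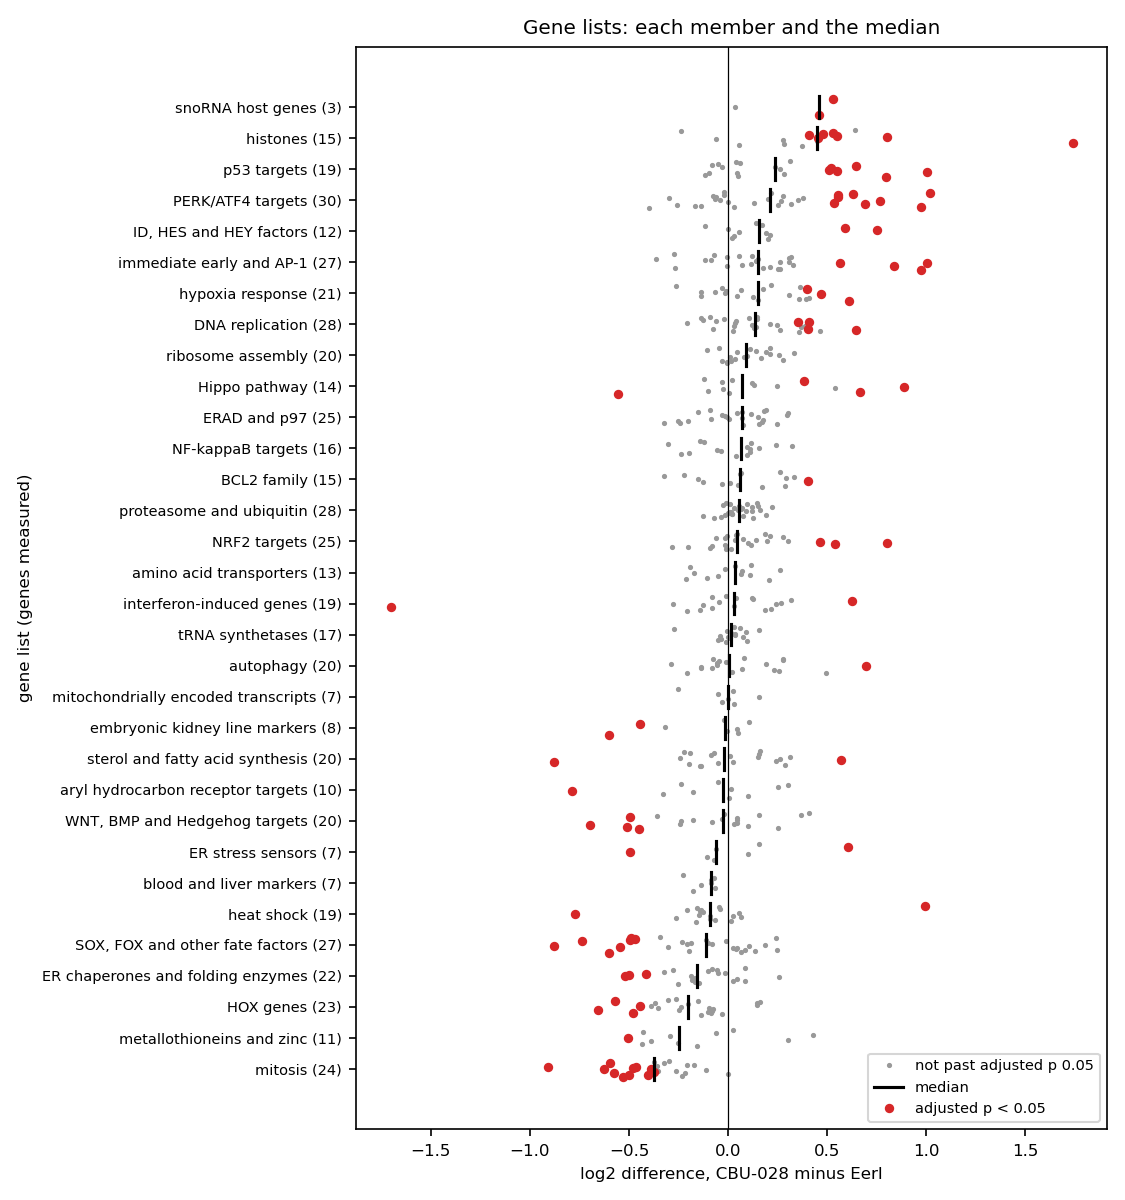
Log2 difference between CBU-028 and EerI (horizontal axis) of every measured member of each gene list (vertical axis, genes measured in brackets, ordered by median), with red points past an adjusted p of 0.05 and a bar at the list median. Mitosis at the bottom has a median of -0.37 and histones near the top one of 0.45, and most other lists centre near 0.

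Some HOX genes and fate factors were lower with CBU-028. Of 23 HOX genes, which set body position, 4 were lower (2.13% over all genes) and 0 higher, with a median of -0.20 and 15 below both EerI arrays (25.5% over all genes). HOXB8 stood at 7.22 and 7.04 in control, 6.98 and 7.04 with EerI and 6.39 and 6.31 with CBU-028 (difference -0.66, adjusted p = 0.0112). HOXD4 had -0.57, HOXB3 -0.48 and HOXC6 -0.44, and HOXB3 was also under control with EerI (8.20 and 8.27 against 8.81 and 8.82). The second probe sets of HOXB8, HOXD4 and HOXB3 gave 0.01, -0.12 and 0.01 and did not pass. Of 27 SOX, FOX and other fate factors, 7 were lower, against 2.13% of all genes, and 0 higher (median -0.11). NR2F1, an orphan nuclear receptor, stood at 10.05 and 10.16 in control, 9.35 and 9.42 with EerI and 8.49 and 8.52 with CBU-028, descending in steps (difference -0.88, adjusted p = 0.00668). SOX2, a stem cell factor, stood at 9.83 and 9.98 with EerI and 9.27 and 9.06 with CBU-028 (difference -0.74, adjusted p = 0.0112), and its 3 other probe sets gave -0.27 to 0.00 and did not pass. EYA1 had -0.60, the HOX cofactor MEIS1 -0.54 and SOX4 -0.50. The second probe set of EYA1 gave 0.01 and did not pass.

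Of 20 targets of WNT, BMP and Hedgehog signalling, 4 were lower, against 2.13% of all genes, and 0 higher, though the median was -0.03. They were the WNT antagonist DKK1 (-0.70, adjusted p = 0.0161), the ligand BMP4 (-0.51), the Hedgehog receptor PTCH1 (-0.49) and AXIN2, a feedback gene of WNT (-0.45). The other probe sets of AXIN2 gave -0.09 to 0.04, and neither these nor the others of PTCH1 passed. None of the HOX, fate factor or WNT, BMP and Hedgehog calls held without either EerI replicate. Of 12 ID, HES and HEY factors, 2 were higher and 0 lower, against 1.60% and 2.13% of all genes. They were HEY2 (0.75, adjusted p = 0.0074) and ID1 (0.59, adjusted p = 0.0199). The second probe set of HEY2 gave -0.02 and did not pass. In the Hippo list of 14, 3 were higher and 1 lower, against 1.60% and 2.13% of all genes. CCN2, a matrix-linked target of YAP, stood at 7.25 and 7.13 with EerI, level with 7.13 and 7.17 in control, and at 8.04 and 8.11 with CBU-028 (difference 0.89, adjusted p = 0.00733). AMOTL2 was 0.67 and the factor TEAD4 0.38 higher. AJUBA, a LIM protein that inhibits LATS kinases, was high with both compounds and lower with CBU-028, at 8.37 and 8.22 in control, 9.90 and 9.89 with EerI and 9.40 and 9.28 with CBU-028 (difference -0.55, adjusted p = 0.0182). These 6 calls were also 0 without either EerI replicate.

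Lipid synthesis genes moved in both directions. FASN, fatty acid synthase, stood at 12.34 and 12.08 with EerI, near 12.31 and 12.40 in control, and at 11.30 and 11.37 with CBU-028 (difference -0.88, adjusted p = 0.00709), and its second probe set gave 0.23 and did not pass. IDI1, of the isoprenoid pathway, stood at 11.37 and 11.50 with EerI, 12.03 and 11.99 with CBU-028 and 12.13 and 12.04 in control (difference 0.57, adjusted p = 0.0164), so here EerI was the group away from control. The other 18 of 20 did not pass. Of 19 interferon-induced genes, ISG15, a ubiquitin-like protein, was 0.63 higher (adjusted p = 0.0112) and IFIT1 lower, with a list median of 0.03. Hypoxia-response genes gave 3 of 21 higher, against 1.60% of all genes, and 0 lower (median 0.15), the peptide hormone ADM (0.61), the demethylase KDM3A (0.47) and PFKFB3 of glycolysis (0.40). For PFKFB3 (adjusted p = 0.0494) the difference from control was 0.05 with CBU-028 and -0.35 with EerI, neither past the test. GABARAPL1, an ATG8 protein, was 0.70 higher (adjusted p = 0.0176) as the only one of 20 autophagy genes, and 0 of 16 NF-kappaB targets passed, with NFKBIE at 0.32 and TNF at -0.30. Of these calls, IFIT1 alone passed without EerI replicate 1, and IFIT1 and FASN without EerI replicate 2.

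None of 7 mitochondrially encoded transcripts differed between the compounds by the test. ND6, a subunit of complex I encoded on the light strand, was low with both, at 12.20 and 12.06 in control, 9.93 and 10.45 with EerI and 9.92 and 9.96 with CBU-028 (difference -0.25, interval -0.59 to 0.08, adjusted p = 0.431), and COX3 had 0.15. Among blood and liver markers the largest differences were -0.23 for TTR and -0.18 for ALB, with overlapping groups.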

How the data were processed

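RNA of 293T cells was hybridized to 8 Affymetrix arrays, 2 each for CBU-028, EerI, 5-NA and control. The deposited log2 values were made by the authors with RMA, which subtracts background, quantile-normalizes and summarizes each probe set; the submitters' processing notes also name Partek, and versions are not given in the sources used here. The methods name another array of the HG-U133 family than HG-U133 Plus 2.0, to which the identifiers belong. RMA gives the arrays a common distribution, so a general shift is removed. The number of arrays limits the precision (median SE 0.099).

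Of 54675 probe sets, 41097 carried a single symbol, 1801 several and 11777 none here. A linear model with a mean per group was fitted to all 8 arrays by limma 3.58.1 (R 4.3.3) (4 residual and 5.08 prior degrees of freedom), with moderated statistics and Benjamini-Hochberg adjustment over all probe sets. The pooled spread is narrower than that of CBU-028 alone. An exact permutation test of 2 against 2 cannot go below p = 0.333. List members were counted at an adjusted p under 0.05 without a fold threshold. The members and the 32 lists were chosen with earlier results of these data known. Named were up to 10 largest rises and falls past both thresholds with groups apart, up to 5 members per list past the test (2 where none passed), 6 study genes and the 6 largest rises alike with both compounds; others are named as list members or as chosen after their values were seen. The fit was tested on simulated data. Promoters are from RefSeq (GRCh38.p14). Figures were drawn with matplotlib 3.10.9.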

Additional observations from a re-analysis of the deposited data

How the results depend on the processing

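The counts of 18 higher and 22 lower probe sets fell to 4 and 3 with the methods' ANOVA after adjustment, to 3 and 3 in a fit of the 4 arrays alone and to 9 and 11 with 1 probe set per gene. They grew to 204 and 303 at a 1.5-fold threshold and to 698 and 915 by the adjusted p alone, and the lower count was 13 at a log2 floor of 7. With each array left out in turn, the higher count ran from 2 to 63, the lower from 4 to 48 and the count within 1.5-fold from 44506 to 49494, with the lowest calls without EerI replicate 1. A lone remaining array was taken to vary like the other groups, and the spread was estimated anew from the arrays that remained. The other alternatives kept both counts within 1.5 times, and none reversed a named gene that passed the main test. Array weights gave 17 and 22, but 21 of the 85 named calls were lost. Deviations of same-numbered arrays correlated between -0.146 and 0.146, which cannot settle whether the samples were handled in pairs. The replicate block gave 17 and 22, with 49933 within 1.5-fold, and 7 of 85 named calls were lost. A crossed replicate block, added after seeing the data because EerI and CBU-028 correlated at -0.146, gave 18 and 22 and lost 5 named calls. A fit without 5-NA, also added later, gave 17 and 21 and lost 11. Of the 85 genes past the test, 81 were lost with the adjusted ANOVA and 81 in the fit of the 4 arrays alone. The cause was not tested.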

Other observations

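The genes of zinc finger proteins named ZNF and a number, a set looked at after the values were seen, were more often higher than lower with CBU-028. Of 425 measured, 27 were higher (6.35%, against 1.60% of all genes) and 3 lower by the adjusted p, and 187 had both CBU-028 arrays above both EerI arrays against 62 below. That is 44.0% above, where all genes gave 23.5%. The median difference was small at 0.08, and lay between 0.07 and 0.10 with any array left out. ZNF473, a factor of histone mRNA 3' end processing, stood at 8.51 and 8.51 in control, 9.20 and 9.16 with EerI and 10.00 and 9.99 with CBU-028 (adjusted p = 0.00481). ZNF451 was 0.82 and ZNF264 0.76 higher. The poly-A labelling controls given beside the histone genes were higher with CBU-028 as well, and their part was not tested.

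Most probe sets of small nucleolar RNA host genes carry several symbols and so stayed out of the gene counts. Over all 28 probe sets that name such a host, some hosts with several, 22 had a difference above 0, 13 were higher with CBU-028 by the adjusted p and 0 lower, with a median of 0.33, where 1.28% of all probe sets were higher. SNHG32 was 0.73 higher (adjusted p = 0.00733). The probe set shared by SNHG15 and a snoRNA gave 1.12.

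On the arrays labelled 5-NA, whose titles carry a number that the study's compound list gives to another compound, the mean lay beyond that of CBU-028 for 6 of the 18 higher probe sets, between CBU-028 and EerI for 11 and beyond EerI for 1. For the 22 lower ones the numbers were 1, 18 and 3. H2AC6 stood at 9.29 and 8.84, FOS at 8.76 and 8.22 and GADD45B at 11.58 and 11.20 with 5-NA, above both other compounds, whereas TRIB3 stood at 10.69 and 10.61, near EerI, and COL2A1 at 8.18 and 8.13, near control. These are levels on the array with no test.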
